A study of Homo sapiens with 14 samples.

Results

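The naïve SOX2 peaks of WIBR3 human embryonic stem cells (hESCs) were divided by whether the BAF chromatin remodelling complex was called at the same place. The study immunoprecipitated chromatin with antibodies against the transcription factor SOX2 and against BAF subunits and sequenced the recovered DNA (ChIP-seq), and 1940 SOX2 peaks of the naïve list were placed on the autosomes, X and Y (hg38), out of 222995 peaks in the 8 different peak lists of the series. Naïve BRG1 and BAF155 peaks were merged into 77195 BAF regions, and a SOX2 peak was assigned to a region where at least 25% of either was covered. Of the 1940 SOX2 peaks, 1668 (86.0%, 95% interval 84.4 to 87.5%) lay in regions that held both BRG1 and BAF155, 137 (7.06%, 5.96 to 8.29%) in regions with one subunit only, and 135 (6.96%, 5.87 to 8.18%) in no BAF region. The one-subunit class comprised 72 peaks with BRG1 only and 65 with BAF155 only. Classes came from the positions of the peaks alone, so the SOX2 fold, the other antibodies, the sequence and the genes described next were not part of the assignment.

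SOX2 is a high-mobility-group transcription factor of pluripotent and neural cells that bends DNA and, in pluripotent cells, binds next to OCT4 on a composite DNA element. BAF (mammalian SWI/SNF) complexes use ATP to slide or eject nucleosomes and occupy promoters and enhancers. Each complex carries either BRG1 (SMARCA4) or BRM (SMARCA2) as its ATPase, while BAF155 (SMARCC1) is a scaffold subunit shared by complexes with either ATPase. A region with a BAF155 peak and no BRG1 peak can therefore still hold a BAF complex.

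WIBR3 is an established hESC line. Naïve cells were cultured in 5i/L/A, a medium with kinase inhibitors, LIF and activin, and primed cells in conventional medium, on mouse feeder cells in both states. SOX2 libraries were sequenced as paired-end reads of 150 bp, and BRG1, BAF155 and BRM libraries, from a larger number of cells, as single-end reads of 75 bp. Input chromatin served as control. The lists of both naïve SOX2 libraries held identical coordinates at all 1940 peaks and were counted as 1 sample. BRG1, BAF155 and BRM had 1 library in each state, and 1 of the primed SOX2 lists was used, so no difference between classes could be tested over samples, and peaks of a list are not replicates of a condition. Intervals are 95% intervals (exact binomial for shares, Woolf for odds ratios, order statistics for medians) that cover counting error only. The peak lists do not give read depth, and no sequencing totals enter these values, the identity of the cells cannot be checked with markers in these data, and a place without a peak is a place where none was called.

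Sequences around some SOX2 summits are printed as examples of the classes. They were picked for a motif, a nearby gene or a high fold, so they do not show how frequent a motif was. The 81 bp windows at other peaks of high fold, such as ETV6, SMARCA2, REST and S100G, held no match to the letters marked here. In the wider 200 bp windows used for the motif shares, SMARCA2 and S100G did hold an exact match, and ETV6 and REST did not. Each of the following is 81 bp of hg38, plus strand, centred on the summit that the peak caller gave. Capitals mark the SOX core (CATTGT or CTTTGT, either strand) and the start of the OCT4-SOX2 composite element (the SOX core followed by NATGC, either strand, with up to 1 mismatch in the fixed letters). The composite start contains the SOX core, so each exact composite match is also a SOX core match. The first 4 sequences are shown because they lie near pluripotency genes and carry an exact composite start inside regions with both BRG1 and BAF155.
POU5F1, chr6:31173061-31173141: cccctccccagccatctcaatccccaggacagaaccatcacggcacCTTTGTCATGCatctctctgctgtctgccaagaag
SOX2, chr3:181716104-181716184: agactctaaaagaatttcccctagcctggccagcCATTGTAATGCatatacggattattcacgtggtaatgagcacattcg
UTF1, chr10:133232298-133232378: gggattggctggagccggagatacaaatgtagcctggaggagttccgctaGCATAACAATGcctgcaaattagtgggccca
KLF5, chr13:73054872-73054952: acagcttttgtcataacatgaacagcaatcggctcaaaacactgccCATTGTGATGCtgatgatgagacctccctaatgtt

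The next 4 sequences are from peaks of high SOX2 fold in regions with one subunit only, named by the nearest protein-coding gene. PRKCA and KDR lay in BAF155-only regions, GSC and KLHL3 in BRG1-only regions.
PRKCA, chr17:66474387-66474467: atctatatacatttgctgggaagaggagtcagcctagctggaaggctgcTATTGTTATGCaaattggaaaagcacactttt
KDR, chr4:55181247-55181327: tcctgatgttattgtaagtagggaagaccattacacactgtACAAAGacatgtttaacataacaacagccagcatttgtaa
GSC, chr14:94781137-94781217: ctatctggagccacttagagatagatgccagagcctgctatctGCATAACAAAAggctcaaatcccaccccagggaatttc
KLHL3, chr5:137741907-137741987: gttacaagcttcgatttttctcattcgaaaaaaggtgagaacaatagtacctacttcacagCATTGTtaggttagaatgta

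The last 4 sequences are from peaks in no BAF region. KCNJ1 and GC are nearest to the peaks of highest fold of that class, and the SLC39A11 and GALNT17 peaks were chosen after their sequences were seen, as the strongest of the class with an exact composite start within 40 bp of the summit.
KCNJ1, chr11:128784619-128784699: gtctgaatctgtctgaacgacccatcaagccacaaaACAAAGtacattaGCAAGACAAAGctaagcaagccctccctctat
GC, chr4:71593474-71593554: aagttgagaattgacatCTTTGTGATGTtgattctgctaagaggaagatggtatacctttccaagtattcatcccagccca
SLC39A11, chr17:72603018-72603098: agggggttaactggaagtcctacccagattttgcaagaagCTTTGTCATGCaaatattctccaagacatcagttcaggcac
GALNT17, chr7:71313724-71313804: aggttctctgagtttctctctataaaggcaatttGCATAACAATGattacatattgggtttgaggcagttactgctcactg

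The SOX core was more frequent at SOX2 summits than 2 kb away in peaks with and without BAF. The SOX core was present in the 200 bp around the summit of 59.1% of all naïve SOX2 peaks, with 972 of 1668 BRG1+BAF155 peaks (58.3%, 55.9 to 60.7%), 94 of 137 one-subunit peaks (68.6%, 60.1 to 76.3%) and 81 of 135 peaks without BAF (60.0%, 51.2 to 68.3%). In windows of the same length 2 kb to either side, the shares were 24.5%, 21.9% and 20.4%. The odds of a SOX core did not differ detectably between BRG1+BAF155 peaks and peaks without BAF (odds ratio 0.931, 0.651 to 1.33), and were lower in BRG1+BAF155 peaks than in one-subunit peaks (0.639, 0.440 to 0.928). Among 35116 RefSeq promoters, 17.3% held the core in a 200 bp stretch. A match to these letters describes the sequence and does not show that a protein bound it.

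The exact composite start was rarer, and its share did not differ detectably between peaks inside and outside BAF regions. It was found at 84 summits, in 72 BRG1+BAF155 peaks (4.32%, 3.39 to 5.41%), 5 one-subunit peaks (3.65%, 1.20 to 8.31%) and 7 peaks without BAF (5.19%, 2.11 to 10.4%), against 1 of 3880 windows at 2 kb (0.0258%) and 0.128% of promoters. Allowing 1 mismatch, which was chosen after seeing the data, gave 25.1%, 18.98% and 27.4% at the summits against 2.49%, 2.92% and 3.70% at 2 kb. The odds ratio of BRG1+BAF155 against no BAF was 0.825 (0.372 to 1.83) with the exact letters and 0.886 (0.597 to 1.31) with 1 mismatch. The intervals still allow differences of either sign. The median distance from the summit to the nearest SOX core within 1 kb was 61.5 bp in the 1608 BRG1+BAF155 peaks that had one, 53.0 bp in 134 one-subunit peaks and 49.5 bp in 126 peaks without BAF, with overlapping intervals (56.5 to 69.5, 41.5 to 58.5 and 36.5 to 77.5 bp).

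**Figure D1:**
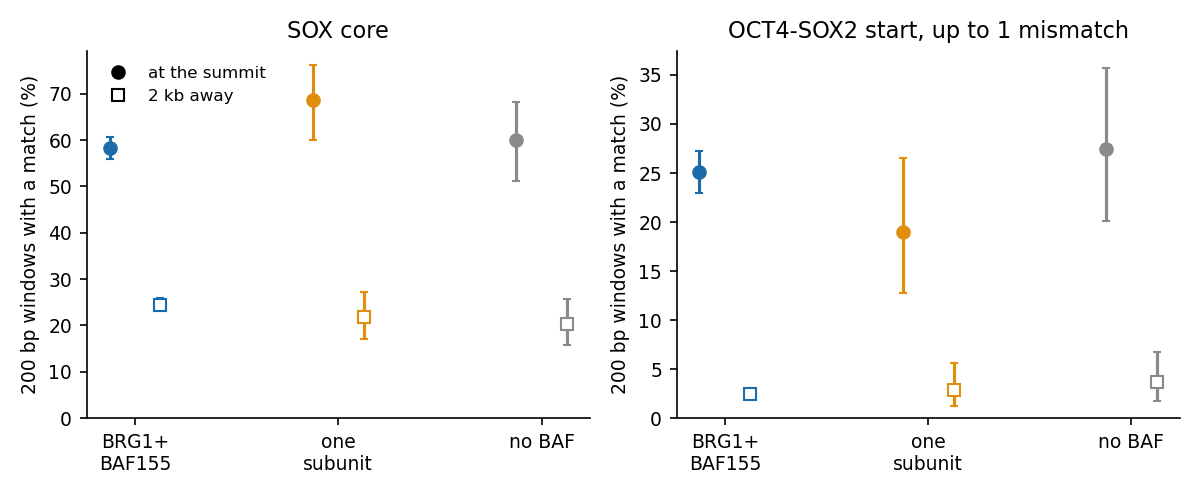
Share of 200 bp windows (y axis, percent) with a SOX core (left) or an OCT4-SOX2 start with up to 1 mismatch (right), by BAF class (x axis). Filled circles are windows at the SOX2 summit and open squares windows 2 kb away, with 95% counting intervals. In each class the summit share stood above the share at 2 kb, with 58.3% against 24.5% for the SOX core in BRG1+BAF155 peaks and 60.0% against 20.4% in peaks without BAF.

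Letters recognised by other factor families were also counted at SOX2 summits. These strings differ in length and in the variants allowed, so their shares are set beside windows 2 kb away and not beside the SOX core. The TFAP2 letters GCCNNNGGC were found at 5.46% of BRG1+BAF155 peaks, 3.65% of one-subunit peaks and 3.70% of peaks without BAF. At 2 kb the TFAP2 shares were 2.88%, 4.74% and 2.96%. KLF letters (GGGCGTGGC, GGGTGTGGC, GGGCGGGGC or GGGTGGGGC) were found at 71 BRG1+BAF155 peaks (4.26%), 2 one-subunit peaks (1.46%) and 0 of 135 peaks without BAF, for which the exact interval reaches 2.70%. At 2 kb the KLF shares were 1.41%, 0% and 1.48%. The TEAD letters GGAATG were found at 18.8%, 18.2% and 22.2%, against 10.2%, 10.2% and 15.2% at 2 kb. The median GC content of the summit windows was 42.5%, 41.0% and 41.5%. The CTCF motif was found at 0 of 1940 summits and in 3 of 3880 windows at 2 kb.

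BAF regions that held SOX2 differed in sequence from those that did not. At the midpoints of the 1635 BRG1+BAF155 regions with a SOX2 peak, 39.8% of 200 bp windows held the SOX core and 1.71% the exact composite start, against 19.01% and 0.121% at 39569 BRG1+BAF155 regions without SOX2. KLF and TFAP2 letters went the other way, with 2.87% against 9.53% for KLF and 4.83% against 17.1% for TFAP2. Median GC content was 43.0% with SOX2 and 54.5% without, and 11.2% against 37.5% of the midpoints lay less than 1 kb from an annotated transcription start site (TSS). The part of GC content in the KLF and TFAP2 shares was not tested.

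SOX2 peaks were rare among BAF regions and concentrated in those with both subunits. A SOX2 peak lay in 1635 of 41204 BRG1+BAF155 regions (3.97%, 3.78 to 4.16%), in 72 of 15703 BRG1-only regions (0.459%, 0.359 to 0.577%) and in 65 of 20288 BAF155-only regions (0.320%, 0.247 to 0.408%). BRG1+BAF155 regions made up 53.4% of the regions and 74.0% of the covered bases. Among regions of 300 to 600 bp, SOX2 was found in 2.67% with both subunits (2.39 to 2.97%) and 0.489% with one (0.377 to 0.624%), and these intervals do not overlap. This width range was added after seeing the data. Of the 1772 regions that held SOX2, 1739 held 1 peak and 33 held 2.

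SOX2 enrichment was higher where both subunits were present. The median fold over input, as given by the authors' peak caller, was 7.43 (7.31 to 7.47) in BRG1+BAF155 peaks, 6.91 (6.502 to 7.43) in BRG1-only peaks, 6.59 (5.98 to 7.03) in BAF155-only peaks and 6.32 (6.003 to 6.59) in peaks without BAF. The highest folds of these classes were 42.2, 15.4, 16.4 and 11.6. The classes overlapped over most of their range, with quartiles of 6.02 and 9.74 for BRG1+BAF155 peaks and of 5.501 and 7.04 for peaks without BAF. Median −log10 q fell in the same order, 10.1, 8.15, 7.19 and 6.89, and median SOX2 peak width was 290 bp with both subunits and 240 bp without BAF.

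The share of SOX2 peaks without BAF fell along the SOX2 fold. When the peaks were ordered by fold and divided into 3 groups, it was 10.5% in the lowest group, 8.20% in the middle group and 2.16% (1.19 to 3.60%) in the highest group. Among the highest of 10 groups of equal size, with a median fold of 15.4, none of 194 peaks lacked BAF (exact interval up to 1.88%) and 4 had one subunit only. The strongest peak without BAF ranked number 254 of the list.

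**Figure D2:**
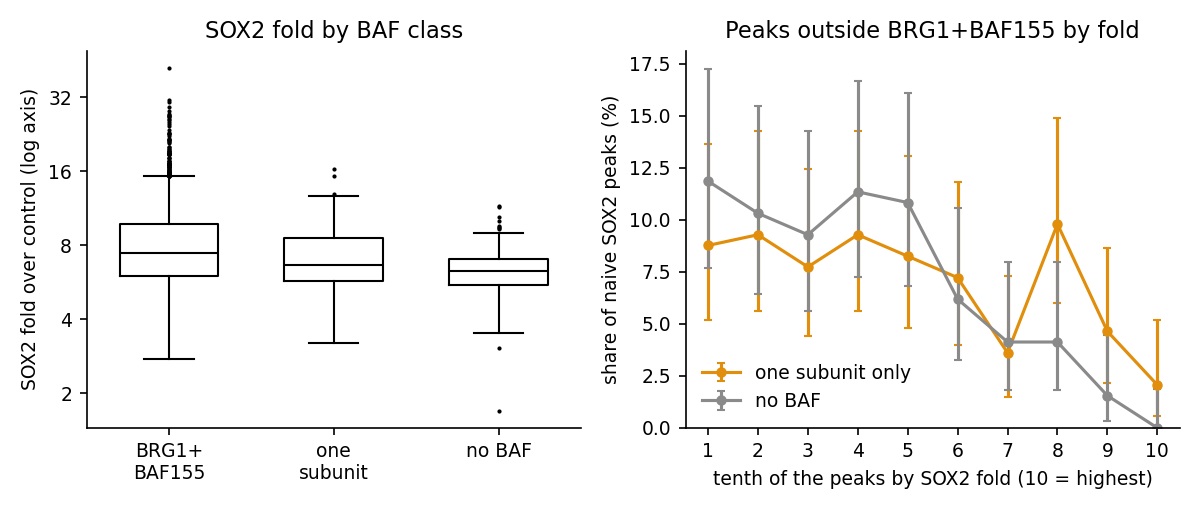
Left, SOX2 fold over input (log axis) in the 3 BAF classes, with boxes from the lower to the upper quartile, the median as a line, whiskers to 1.5 box heights and points beyond. Right, the share of one-subunit peaks and of peaks without BAF (percent, with 95% counting intervals) in 10 groups of the 1940 peaks ordered by SOX2 fold, where the share without BAF goes from 11.9% in the lowest group to 0 of 194 in the highest.

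The median BRG1 and BAF155 folds were slightly higher at SOX2 peaks with both subunits. Calls of these subunits defined the classes, so this order is not independent of the class rule. The BRG1 and BAF155 peaks without SOX2 include those of one-subunit regions and are not matched by class. The median BRG1 fold was 3.12 (3.10 to 3.15) at these peaks, 2.82 (2.75 to 2.97) at BRG1-only SOX2 peaks and 2.92 at the 56188 BRG1 peaks without SOX2. The median BAF155 fold was 3.06 (3.03 to 3.08) with both subunits, 2.67 (2.58 to 2.80) at BAF155-only SOX2 peaks and 2.89 at the 60660 BAF155 peaks without SOX2. The median BRM fold was 3.07 (3.04 to 3.11) at 839 SOX2 peaks with both subunits and 3.28 at 16573 BRM peaks without SOX2. The latter were not restricted to regions with both subunits. Too few one-subunit SOX2 peaks had BRM for a median of that class.

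The position of the SOX2 summit within the BAF region differed between the classes, as did the width of the regions, so it is given on both scales. BRG1+BAF155 regions at SOX2 peaks had a median width of 1088.5 bp (1025 to 1127 bp), and one-subunit regions 334 bp (306 to 383 bp). The summit lay a median of 166 bp (151.5 to 178 bp) from the midpoint of the region with both subunits and 77.0 bp (58.0 to 94.5 bp) from that with one subunit. Relative to the region, the order turned. The summit was in the central 50% of the region for 1171 BRG1+BAF155 peaks (70.2%, 67.9 to 72.4%) and 71 one-subunit peaks (51.8%, 43.1 to 60.4%). It was inside the region at all for 99.5% and 85.4%, shares that depend on the overlap rule and were not compared at equal region width.

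The more central position with both subunits was also present among regions of 300 to 600 bp. There, 79.1% of 321 BRG1+BAF155 summits (74.3 to 83.4%) and 60.9% of 64 one-subunit summits (47.9 to 72.9%) were in the central 50%. This stratum was added after seeing the data. In the planned restriction to regions of 2 kb or less, the log2 odds ratio was 1.22 (0.71 to 1.74), against 1.13 over all widths. Among regions wider than 2000 bp, which held 326 BRG1+BAF155 peaks, the central share was 64.7%. Measured to each subunit's own peak, the summit was a median of 134 bp from the BRG1 midpoint, 135.5 bp from the BAF155 midpoint and, for the 839 peaks with BRM, 105 bp from the BRM midpoint. Those peaks had median widths of 849 bp, 859 bp and 472 bp.

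Summits did not lean toward the nearest gene. Where the nearest protein-coding TSS lay outside the region, the summit was on the TSS side of the midpoint in 780 of 1576 BRG1+BAF155 peaks (49.5%, 47.0 to 52.0%) and 66 of 133 one-subunit peaks (49.6%, 40.8 to 58.4%). The nearest SOX core was closer to SOX2 summits than to BAF midpoints, which are unlike measures. A summit is a point given by the peak caller in SOX2 peaks of 283 bp median width. A midpoint is the centre of a BAF region, of 961.5 bp median width where SOX2 was held. The SOX2 set also includes peaks without BAF, and the part of width was not tested. The nearest core was a median of 132.5 bp (122.5 to 141.5 bp) from the midpoints of the BAF regions that held SOX2, against 58.5 bp (55.5 to 65.5 bp) from the summits of all SOX2 peaks.

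**Figure D3:**
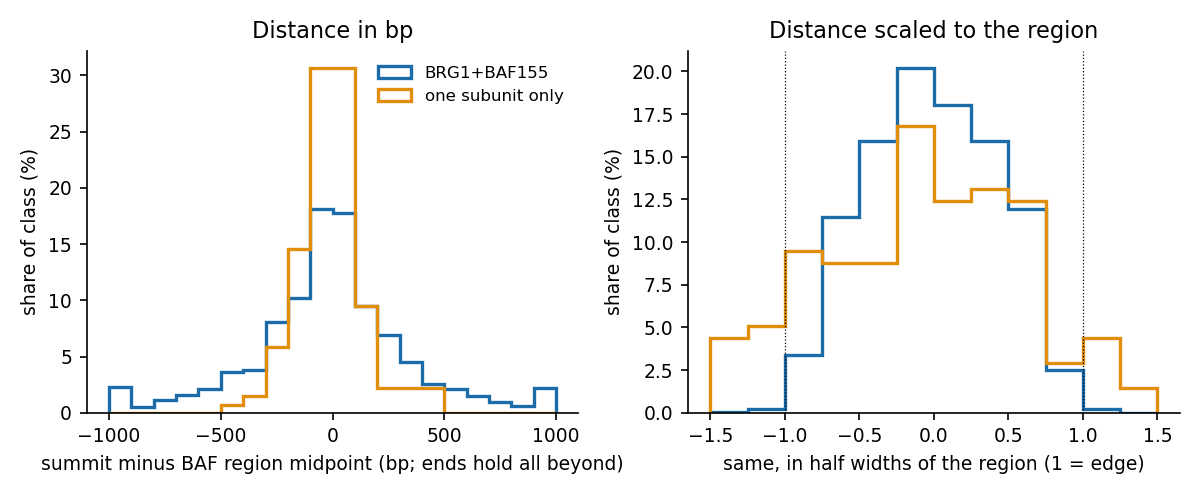
Position of the SOX2 summit relative to the midpoint of the BAF region for the 1668 BRG1+BAF155 peaks and the 137 one-subunit peaks, in bp (left, end bins hold all values beyond) and as a share of the distance from midpoint to edge (right, dotted lines at the edges). The y axes give the share of the class in percent. On the left the one-subunit peaks are closer to the midpoint (median 77.0 against 166 bp), and on the right the BRG1+BAF155 peaks are (70.2% against 51.8% in the central 50%).

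BRM, the alternative ATPase, was called at SOX2 peaks almost only where BRG1 and BAF155 were both present. A naïve BRM peak overlapped 43.7% of all naïve SOX2 peaks. These were 839 of 1668 BRG1+BAF155 peaks (50.3%, 47.9 to 52.7%), 3 of 72 BRG1-only peaks (4.17%, 0.868 to 11.7%), 3 of 65 BAF155-only peaks (4.62%, 0.962 to 12.9%) and 3 of 135 peaks without BAF (2.22%, 0.461 to 6.36%). The odds ratio of both subunits against one was 22.1 (9.69 to 50.4). BAF regions without regard to SOX2 had the same order, since BRM overlapped 34.9% of all BRG1+BAF155 regions and 3.79% of all one-subunit regions. Within BRG1+BAF155 regions the BRM share was 55.8% (53.4 to 58.3%) with SOX2 and 34.1% (33.6 to 34.5%) without. The regions with SOX2 were wider, with a median of 1061 bp against 781 bp, and the part of width in this difference was not tested.

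The BRM share rose with the width of the BAF region. In BRG1+BAF155 regions it was 13.6% of 22 SOX2 peaks at widths under 300 bp, 23.1% of 321 at 300 to 600 bp, 44.8% of 440 above 600 and up to 1000 bp, 58.5% of 559 above 1000 and up to 2000 bp and 73.0% of 326 above 2000 bp. At 300 to 600 bp, a stratum added after seeing the data, 7.81% of 64 one-subunit peaks had BRM (2.59 to 17.3%), against 23.1% (18.6 to 28.1%) with both subunits. On the log2 scale the odds ratio fell from 4.47 over all widths to 1.82 (0.45 to 3.19) at this width.

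The same peaks were then compared with the primed lists, to see which naïve SOX2 sites were also occupied in primed cells. A primed SOX2 peak overlapped 47.9% of all naïve SOX2 peaks, with 49.6% (47.2 to 52.1%) of BRG1+BAF155 peaks, 40.1% (31.9 to 48.9%) of one-subunit peaks and 34.8% (26.8 to 43.5%) of peaks without BAF. A primed BAF region overlapped 61.2% of all naïve SOX2 peaks and, in the same order, 64.2%, 47.4% and 38.5% of the classes. For comparison, 52.5% of all naïve BRG1+BAF155 regions overlapped a primed BAF region. The odds ratio of BRG1+BAF155 peaks against peaks without BAF was 1.85 (1.28 to 2.66) for primed SOX2 and 2.86 (2.00 to 4.11) for primed BAF.

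The primed SOX2 difference was not present at all SOX2 folds. In the lowest of 3 groups by fold, 37.9% of BRG1+BAF155 peaks and 38.2% of peaks without BAF overlapped primed SOX2 (odds ratio 0.987, 0.587 to 1.66). In the middle group the shares were 45.8% and 26.4% (2.35, 1.25 to 4.44) and in the highest group 63.4% and 50.0%, the latter from only 14 peaks (1.73, 0.599 to 5.00). These groups were added after seeing the data.

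Among naïve SOX2 peaks without BAF, 37 (27.4%) had both SOX2 and BAF in primed cells, 10 (7.41%) had primed SOX2 without primed BAF, 15 (11.1%) had primed BAF alone and 73 (54.1%) had neither. Among BRG1+BAF155 peaks the corresponding shares were 48.0%, 1.62%, 16.2% and 34.2%. The primed subunits were unequal. Both primed BRG1 and primed BAF155 were present at 35.2% of BRG1+BAF155 peaks and 14.1% of peaks without BAF, primed BAF155 alone at 29.0% and 24.4%, and primed BRG1 alone at 0 of 1940. The primed BRG1 list was shorter than the primed BAF155 list, with 15611 against 58352 peaks.

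**Figure D4:**
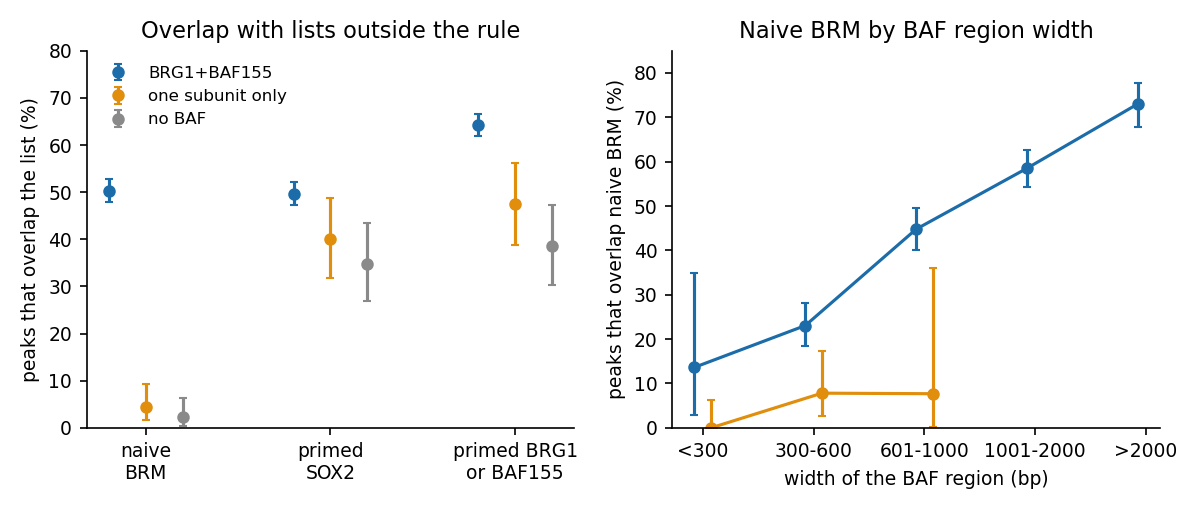
Left, share of naïve SOX2 peaks of each BAF class (percent, with 95% counting intervals) that overlapped a naïve BRM peak, a primed SOX2 peak or a primed BRG1 or BAF155 peak. Right, share with a naïve BRM peak by the width of the BAF region (bp), for widths with at least 10 peaks, which goes from 13.6% to 73.0% with both subunits and lies at 7.81% or lower with one.

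SOX2 peaks without BAF were farther from genes. The median distance from the summit to the nearest TSS of any gene was 8868 bp (7894 to 9740 bp) in BRG1+BAF155 peaks, 10463 bp (7476 to 17894 bp) in one-subunit peaks and 18823 bp (13711 to 24723 bp) in peaks without BAF. The promoter share, within 1 kb of a TSS, was 10.0%, 10.2% and 9.63%, a difference that was not detectable with these numbers of peaks. The classes parted at 1 to 5 kb, with 25.7% (23.6 to 27.8%) of BRG1+BAF155 peaks, 20.4% (14.0 to 28.2%) of one-subunit peaks and 10.4% (5.79 to 16.8%) of peaks without BAF. The odds ratio of BRG1+BAF155 peaks against peaks without BAF in this range was 2.98 (1.70 to 5.24). Beyond 50 kb were 9.95%, 10.2% and 20.0%. Introns held 49.3%, 50.4% and 52.6% of the peaks and intergenic sequence 37.5%, 35.8% and 35.6%.

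A protein-coding TSS was within 20 kb of 687 BRG1+BAF155 peaks (41.2%, 38.8 to 43.6%), 46 one-subunit peaks (33.6%, 25.7 to 42.1%) and 37 peaks without BAF (27.4%, 20.1 to 35.7%), and the odds ratio of the first against the last was 1.85 (1.26 to 2.74). This direction turned when the overlap had to cover 25% of both regions (log2 odds ratio −0.84 against 0.89). The BAF regions at the 687 BRG1+BAF155 peaks with a protein-coding TSS within 20 kb had a median width of 1307 bp. At the other 981 BRG1+BAF155 peaks it was 939 bp. The part of region width in this turn was not tested.

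**Figure D5:**
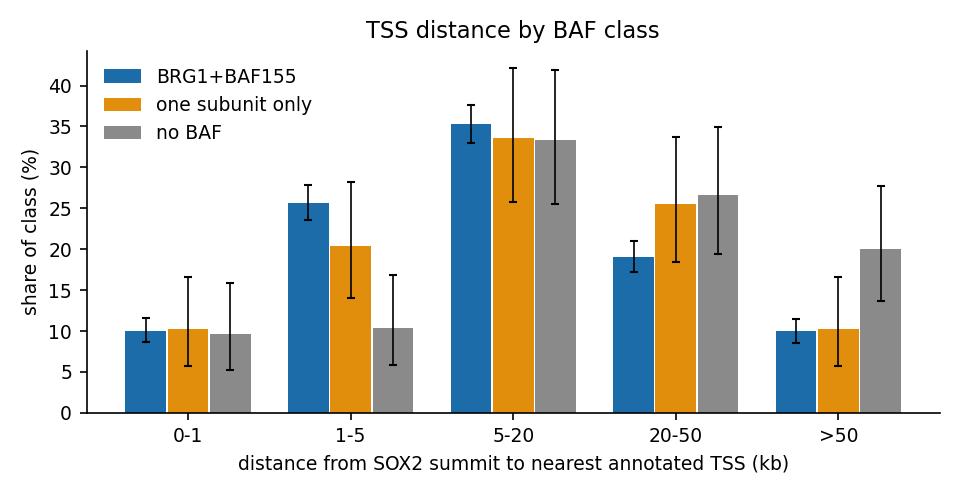
Share of each BAF class (y axis, percent, with 95% counting intervals) in 5 ranges of distance from the SOX2 summit to the nearest annotated TSS (x axis, kb). Bars of the 3 classes lie within each other's intervals at under 1 kb (10.0%, 10.2% and 9.63%), and peaks without BAF are fewer at 1 to 5 kb (10.4% against 25.7%) and more frequent beyond 50 kb (20.0% against 9.95%).

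Sequence that occurs more than once in the genome was more common in peaks without BAF. More than 50% of a peak's 32-base words recurred elsewhere in hg38 for 12.8% (11.2 to 14.5%) of BRG1+BAF155 peaks, 11.7% (6.82 to 18.3%) of one-subunit peaks and 27.4% (20.1 to 35.7%) of peaks without BAF. The part of multi-copy sequence in the other results for peaks without BAF was not tested beyond leaving such peaks out. The 98 remaining peaks without BAF overlapped primed SOX2 in 40.8% and primed BAF in 51.02% of cases. With such peaks left out of both classes, the log2 odds ratio of BRG1+BAF155 against no BAF was smaller. It went from 0.88 to 0.65 (0.053 to 1.25) for primed SOX2 and from 1.52 to 1.05 (0.46 to 1.64) for primed BAF.

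Several peaks without BAF lay next to a BAF region. The nearest region was a median of 6367 bp away (3109 to 10653 bp), with 13 of 135 peaks touching one by less than the required 25%, 40 (29.6%) within 1 kb, 78 (57.8%) within 10 kb and 23 (17.0%) more than 50 kb away.

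The genes nearest to SOX2 peaks were counted at distances under 20 kb. At least 1 naïve SOX2 peak had its nearest protein-coding TSS in 712 of 19663 protein-coding genes (3.62%), of which 637 were reached by BRG1+BAF155 peaks, 46 by one-subunit peaks and 37 by peaks without BAF. Of these genes, 660 had 1 peak and 48 had 2. Among gene lists, SOX2 peaks reached 10 of 20 core pluripotency genes, 9 of 26 naïve and preimplantation genes, 4 of 20 primed and ectoderm genes, 3 of 18 genes of the FGF and ERK pathway, 2 of 21 genes of BAF subunits, 1 of 12 endoderm genes and 1 of 15 trophoblast genes. Each of these list genes had a BRG1+BAF155 peak, near the overall count of 637 of 712. One-subunit peaks reached NANOG alone among them, and peaks without BAF reached DUSP6 alone.

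The core pluripotency factors were represented by OCT4 (POU5F1), SOX2 and NANOG. At POU5F1 (ENSG00000204531.21), which encodes OCT4, SOX2 was called at chr6:31172938-31173238 with a fold of 10.4, 2419 bp upstream of the TSS, in a BAF region of 5337 bp with BRG1 (fold 3.36), BAF155 (3.17) and BRM (3.27) and with primed SOX2 (fold 19.2). At SOX2 itself (ENSG00000181449.4), a peak at chr3:181715961-181716325 with a fold of 15.9 lay 4219 bp downstream of the TSS, with BRG1, BAF155 and BRM. A weaker one at chr3:181727836-181728068, with a fold of 4.68, lay 16022 bp downstream and had the same subunits. The POU5F1 summit and the stronger SOX2 summit carry the exact composite start printed earlier. Folds of different antibodies come from different libraries and are not comparable with each other.

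NANOG (ENSG00000111704.11), a homeobox factor of the pluripotency network, was the one core gene with a SOX2 peak in a one-subunit region. Its peak at chr12:7789186-7789486 had a fold of 10.8, lay 83 bp upstream of the TSS and overlapped a BAF155-only region of 432 bp (BAF155 fold 2.42) without BRG1 or BRM. More than 50% of this peak's 32-base words (62.2%) occur elsewhere in the genome. Primed SOX2 (fold 8.67) and primed BAF155 overlapped it. A second peak at chr12:7784592-7785010, with a fold of 5.66, lay 2884 bp upstream in a region of 1958 bp with BRG1, BAF155 and BRM.

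Other core genes had SOX2 with both subunits. UTF1 (ENSG00000171794.4), a chromatin factor of pluripotent cells, had a peak at chr10:133232158-133232533 with a fold of 12.3, 2121 bp downstream of the TSS, and BRM in a BAF region of 3652 bp. TDGF1 (ENSG00000241186.10), the NODAL coreceptor CRIPTO, had one at its TSS (chr3:46574338-46574842, fold 11.9, 44 bp downstream). DPPA2 had one 36 bp downstream of its TSS with a fold of 5.11, and the neighbouring DPPA4 one with a fold of 7.43. SALL4, a zinc finger factor, had one 9228 bp upstream with a fold of 7.92. TERF1, which encodes a telomere protein, had the highest fold of the list, 19.3, at 6759 bp upstream, and PRDM14 had 7.31. All these sites held BRM and a primed SOX2 peak.

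The 13 peaks at 9 naïve and preimplantation genes lay in BRG1+BAF155 regions, the class of 86.0% of all naïve SOX2 peaks. DPPA5 (ENSG00000203909.4), a naïve pluripotency marker, had the peak ranked number 6 of the list, with a fold of 27.5 at chr6:73349194-73349717, 4772 bp downstream of the TSS, in a region of 2147 bp with BRM and with primed SOX2 (fold 22.8), primed BRG1 and primed BAF155. KLF17, a preimplantation factor, had a fold of 11.6 at 11867 bp upstream (chr1:44106812-44107156) with BRM and with no primed SOX2 or primed BAF peak. OLAH had 10.98 at 1681 bp downstream, also without a primed SOX2 or BAF peak. TFCP2L1, a factor of naïve pluripotency, had 5.71 at 1317 bp downstream, and NLRP2 had 7.47, both without primed SOX2. The alkaline phosphatase gene ALPG had 9.58, with most of the peak in multi-copy sequence, and overlapped primed SOX2 (fold 18.6) and primed BAF155.

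KLF5 (ENSG00000102554.14), a Krüppel-like factor, shared with SCGB3A2 the largest number of SOX2 peaks for a gene, 4 each. Its peaks lay 19855 bp and 16690 bp upstream, 64 bp upstream and 16629 bp downstream of the TSS, with folds of 6.58, 14.2, 10.5 and 7.06. All 4 had BRG1 and BAF155, and BRM was called at the most upstream one and at the promoter. The promoter peak, chr13:73054758-73055084, carries the composite start printed earlier and had no primed SOX2 peak. The 4 SCGB3A2 peaks (folds 6.12 to 10.5) lay within 3707 bp of its TSS in 2 BAF regions, and 3 of them were mostly multi-copy sequence. AVL9 and APOBEC3F followed with 3 peaks each, and 1 AVL9 peak was without BAF. That AVL9 peak was 124 bp from a BAF region and mostly multi-copy sequence (61.3%). The APOBEC3F peaks 9173 bp upstream and 11218 bp downstream were also mostly multi-copy (59.5% and 72.6%).

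LEFTY1 and LEFTY2 encode inhibitors of NODAL signalling. A LEFTY1 peak 10396 bp upstream of the TSS (chr1:225899305-225899724) had a SOX2 fold of 16.2, and a LEFTY2 peak 4456 bp upstream had a fold of 6.22. BRG1 and BAF155 were called at both (BRG1 folds 4.93 and 3.76), and BRM at the LEFTY1 peak. Primed SOX2 was called at both, with folds of 19.4 and 14.8.

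Genes of the primed state and ectoderm with a naïve SOX2 peak were OTX2, SFRP2, FZD7 and DUSP6. OTX2 (fold 8.20, 301 bp upstream), SFRP2 (8.17, 1290 bp upstream) and FZD7 (9.37, 10390 bp upstream) had BRG1, BAF155 and primed SOX2, the last with folds of 24.2, 17.3 and 7.13. DUSP6 (ENSG00000139318.8), an ERK phosphatase, had a pair of peaks that fell into different classes. The one at chr12:89350460-89350694, 609 bp downstream of the TSS, had a fold of 9.66 and lay in a BAF region of only 288 bp with BRG1 and BAF155. The other, at chr12:89349906-89350228, 1076 bp downstream, had a fold of 8.08 and was 204 bp from that region, with an exact composite start in the 200 bp around its summit. In primed cells a SOX2 peak with a fold of 10.2 overlapped each of them, and primed BRG1 and BAF155 were called at both.

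The genes reached in the remaining lists had BRG1+BAF155 peaks, as did 637 of the 712 protein-coding genes reached in all. In the FGF and ERK pathway these were ETV4 (fold 4.83), SPRY2 (4.33) and FGFR1 (6.93 and 7.07). EOMES, a T-box factor of trophoblast and endoderm, had 7.03 at 5958 bp upstream, and GATA6, an endoderm factor, 6.34 and 5.22 within 13004 bp downstream. Among BAF subunits, SMARCA2, which encodes BRM, had the peak ranked number 2 (fold 31.2, chr9:2018750-2019393, 1023 bp downstream of the TSS), in a BAF region of 3231 bp that also held BRM (fold 3.20). The 200 bp around the SMARCA2 summit held an exact composite start. BCL11A had 4.83 at 17136 bp downstream.

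The SOX2 peaks of highest fold in the BRG1+BAF155 class were at ETV6, SMARCA2, SPIC, PIK3R3 and REST, with folds from 28.2 to 42.2, and all 5 overlapped BRM. REST (ENSG00000084093.19), a repressor of neuronal genes, had its peak at the promoter (chr4:56907364-56907776, 293 bp upstream, fold 28.2). The SPIC peak (chr12:101474056-101474518, fold 30.6) lay 1041 bp upstream of a gene for an ETS factor and had neither SOX2 nor BAF in primed cells, whereas the other 4 had primed SOX2, BRG1 and BAF155. PIK3R3 was 88684 bp from its peak (chr1:46043705-46044269, fold 29.3).

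The strongest one-subunit peaks had folds from 12.3 to 16.4 and were nearest to PRKCA, SLA2, KLHL3, GSC and KDR. The first and last were in BAF155-only regions and the others in BRG1-only regions, of 255 to 550 bp, and none overlapped BRM. The SLA2 peak (chr20:36642948-36643273, fold 15.4) lay in an intron 2778 bp downstream of the TSS. The PRKCA peak (chr17:66474248-66474625) was in an intron 171814 bp from the TSS, and both it and the GSC peak (chr14:94780996-94781337), upstream of a gene for a homeobox factor of gastrulation, overlapped primed SOX2 with both primed subunits.

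The strongest peaks without BAF had folds from 9.58 to 11.6 and were nearest to KCNJ1, GC, H3-7, FAAH2 and S100G, all more than 50 kb from a protein-coding TSS of these genes. The KCNJ1 peak (chr11:128784493-128784822) was 2005 bp from a BAF region and the GC peak (chr4:71593339-71593662) 20825 bp. Both overlapped primed SOX2 (folds 9.70 and 5.61) with primed BRG1 and BAF155. The S100G peak (chrX:16586756-16587080), 6717 bp from a BAF region, overlapped primed SOX2 (14.3) with primed BAF155 only. The H3-7 and FAAH2 peaks were mostly multi-copy sequence (73.6% and 58.6% of their 32-base words) and lay 531 bp and 1932 bp from a BAF region. The H3-7 peak overlapped primed SOX2 (4.33) without primed BAF, and the FAAH2 peak overlapped neither.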

How the data were processed

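Peak lists of 10 ChIP-seq libraries were deposited. According to the methods of the study, reads were mapped to hg38 with Bowtie2 (2.3.4), duplicates were removed, and peaks were called against input by MACS2, narrow for SOX2 and broad for BAF subunits. No separation of human from mouse feeder reads is described. The deposited lists give positions (1-based here), a score, a fold enrichment over input, and −log10 p and −log10 q per the authors' peak caller. The second list of each SOX2 state and the primed BRM list give positions alone. Whether the SOX2 libraries were pooled before calling is not stated.

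Overlaps, motif matches and nearest genes (GENCODE release 44) were computed with numpy 2.4.6, pandas 2.3.3 and pysam 0.24.0 and tested on simulated data. A SOX2 peak had the subunits of the BAF regions it overlapped. An odds ratio with a 0 had 0.5 added to each count. Depth is not given by the lists. The primed BRM list and the second primed SOX2 list were not used. Named sites were the 5 peaks of highest fold per class, each gene of the gene lists (core pluripotency, naïve, primed, trophoblast, endoderm, FGF and ERK, BAF subunits) with a SOX2 peak under 20 kb as nearest protein-coding gene, and the genes nearest to most peaks (the third place was tied), and one such site is not reported here. Members, lists and tests were chosen with earlier results of these data known. The alternatives changed the overlap, thresholds, peak width, reference point, multi-copy sequence and distances.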

Additional observations from a re-analysis of the deposited data

How the results depend on the processing

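Of 143 alternative values for 13 results, 118 stayed within the main 95% interval, 22 left it and 3, of results whose main interval excluded 0, had the opposite direction. The 143 and the 118 include the values without 1 of the naïve SOX2 libraries. These repeat the main or the midpoint values, so they could not test stability. Results whose main interval included 0 also changed sign: the promoter log2 odds ratio (main 0.06) was −0.74 (−1.19 to −0.29) with 25% of both regions, −0.22 with BAF peaks of a fold of at least 4, −0.20 for protein-coding TSSs, −0.11 with an overlap of 1 bp, −0.083 without multi-copy peaks, −0.026 with SOX2 peaks set to 300 bp and 0.83 (0.039 to 1.63) within 2 kb, and the SOX core value (main −0.10) was 0.0018 and 0.15 with 25% and 50% of both regions. With an overlap of 25% of both regions, the shares with both subunits and without BAF went from 86.0% and 6.96% to 48.5% and 45.2%, the median SOX2 folds from 7.43 and 6.32 to 7.80 and 6.76, and the log2 odds ratio of a protein-coding TSS within 20 kb from 0.89 to −0.84. With 50% of both, these values were 16.8%, 78.9%, 8.54, 7.03 and −0.66, the one-subunit share was 4.28% (7.06% in the main setting), and the log2 odds ratios were 2.97 for BRM (main 4.47) and −0.90 for promoters (main 0.06). Such rules leave wide BAF regions without SOX2 by construction. With BAF peaks of a fold of at least 4, the shares were 2.32% and 91.1%, the median folds 8.17 and 7.07, and the log2 odds ratios 1.55 for BRM, 0.12 for a TSS within 20 kb and 0.58 for the central 50% (main 1.13), and the intervals of the last 2 included 0. Subunits called by direct overlap gave 83.7% with both and 9.43% with one. Without multi-copy peaks, 5.85% were without BAF. Leaving out either naïve SOX2 library could not change the class shares, since the coordinates are the same. Without replicate 1, whose list alone gives summits, peak midpoints gave a promoter value of 0.19 and a central value of 1.22.

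The class shares and the TSS difference therefore depend on the overlap rule. Primed SOX2 (main log2 odds ratio 0.88) and primed BAF (1.52) stayed within their intervals under the alternatives named so far, although with BAF peaks of a fold of at least 4 the primed SOX2 interval included 0. In the lowest of 3 groups by SOX2 fold, chosen after seeing the data, the primed SOX2 value was −0.019, and it was 1.24 and 0.79 in the middle and highest groups. BRM was 1.82 at region widths of 300 to 600 bp, also chosen after seeing the data. The causes were not tested. No paired analysis was possible because the lists of both naïve SOX2 libraries held the same coordinates and count as 1 sample. No value has a replicate error, and read depth was not used.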
